A study of Mus musculus with 7 samples.

Results

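The Sox2 locus was examined as every ATAC-seq peak that touched a window of 300 kb on mouse chromosome 3, from 34400000 to 34700000 of the mm9 build, with Sox2 itself at about 34548900 to 34551400. The window held 108 of the 644207 peaks in 7 peak lists, 1 list per sample. It held 4 of 37270 peaks in deltaFT neural progenitor cells (NPC), 3 of 41126 in wild-type NPC and 11 of 28907 in female embryonic stem cells (mESC). In male stem cells (TXY) it held 22 of 142526 peaks in deltaRepA with doxycycline (dox), 23 of 129055 in deltaRepA without dox, 20 of 125498 in TXY wild type with dox and 25 of 139825 in TXY wild type without dox. Where peaks of different lists overlapped they were joined, which gave 36 sites. Each site is named by the distance of its centre from the Sox2 start, which is known here to about 100 bp.

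ATAC-seq marks open chromatin by the places where the Tn5 transposase can insert sequencing adapters. All 3 female lines derive from a 129S1 x Cast:EiJ F1 cross: deltaFT NPC (line sgdgb2), wild-type NPC (line C2) and mESC (line F1216). The mESC were grown with serum and LIF, and both NPC lines in N2/B27 medium with FGF and EGF. In deltaFT NPC a boundary region of the X chromosome was deleted, so Sox2 lies outside the deleted part. All 4 TXY samples were male J1 mESC with a dox-inducible Xist at its own place on the X chromosome, without (deltaRepA) or with (wild type) the A repeat of Xist, and were given 2 ug/mL dox for 48 hours or left untreated. For both samples titled as given dox, the description points to a file named as untreated; the titles were followed, and every value with or without dox rests on them. Each genotype is represented by 1 line, so line and genotype cannot be told apart, and with 1 sample per group no p-value between groups was computed. One label of the mESC sample names neural progenitors while its title names mESC; the title was followed.

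Sox2 encodes a transcription factor with an HMG box that works with Oct4 to keep embryonic stem cells pluripotent and is kept on in neural progenitors. In mouse embryonic stem cells its transcription depends on a distal enhancer cluster far downstream of the gene, known as the Sox2 control region. Shorter regulatory regions lie just before and just behind the gene, and neural cells are known to use other enhancers of the same locus. Sox2 is a gene of 2467 bp in RefSeq and lies inside the long noncoding RNA gene Sox2ot.

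The promoter is shown because the Sox2 start is the one site of the window with a peak in all 7 lists. The 250 bases before the Sox2 start (RefSeq, GRCm38.p6, chr3:34649745-34649994, plus strand, 5′ to 3′) read as follows, with capitals on the motif matches.
Sox2 promoter: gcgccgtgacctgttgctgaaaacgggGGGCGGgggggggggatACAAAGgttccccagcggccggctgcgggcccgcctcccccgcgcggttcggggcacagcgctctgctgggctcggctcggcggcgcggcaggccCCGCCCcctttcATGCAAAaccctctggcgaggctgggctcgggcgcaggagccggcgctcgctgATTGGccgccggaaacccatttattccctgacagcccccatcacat
The 4 motifs were picked after the sequence was read and were searched on both strands. ATGCAAA, the octamer core bound by POU factors such as Oct4, stood once in it and in 4.12% of the same stretch of all 32851 promoters of the table. ACAAAG, a core bound by HMG-box factors, stood once in it and in 16.5% of promoters. The CCAAT box stood once, on the minus strand, against 33.8% of promoters, and the GC box GGGCGG stood at 2 places, 1 on each strand, against 32.7%. The builds differ, so the place of these letters within the mm9 peaks was not computed, and a match is not evidence of binding.

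In the IDR lists, neural progenitors and stem cells shared a peak at the Sox2 start and at no other site of the locus. In the library and TXY lists they shared further sites, at -73.6, 4.0, 7.4, 14.3, 21.4, 42.3, 101.7 and 124.1 kb, each with a peak in at least 1 NPC library and in at least 1 stem cell list. In wild-type NPC 2 of the 3 IDR peaks (peaks reproducible between the 2 libraries of a line, irreproducible discovery rate under 0.05) overlapped no mESC IDR peak, against 68.3% of all autosomal wild-type NPC peaks, a share near the background. One of these 2 peaks lay at the start site itself, beside the mESC peak. In mESC 10 of 11 overlapped no wild-type NPC IDR peak, or 90.9% (exact Clopper-Pearson 95% interval 58.7% to 99.8%), against 53.7% of all autosomal mESC peaks, and this background lay below the interval. With the wild-type NPC library lists counted too, it was 9 of 11 (81.8%, 48.2% to 97.7%), with no autosomal share computed. The wild-type NPC IDR list kept 2 of 7 window regions found in both its libraries, against 63.0% of autosomal ones, with no interval computed. The mESC peaks reached from the site at -7.3 kb to the site at 145.7 kb. Among 8066 autosomal windows of the same length, 5.93% held at least as many mESC peaks, while 48.5% held at least as many deltaFT NPC peaks and 64.1% at least as many wild-type NPC peaks. The median window held 3 deltaFT NPC, 4 wild-type NPC and 2 mESC peaks. In all, 8 windows (0.0992%) had at least 11 mESC peaks together with at most 4 deltaFT and at most 3 wild-type NPC peaks, the Sox2 window among them. These limits are the Sox2 window's own counts, so it met them by construction and the small share is not a test of rarity. Peaks of 1 locus are not independent of each other, and a missing peak means that none was called, not that the chromatin was closed.

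**Figure D1:**
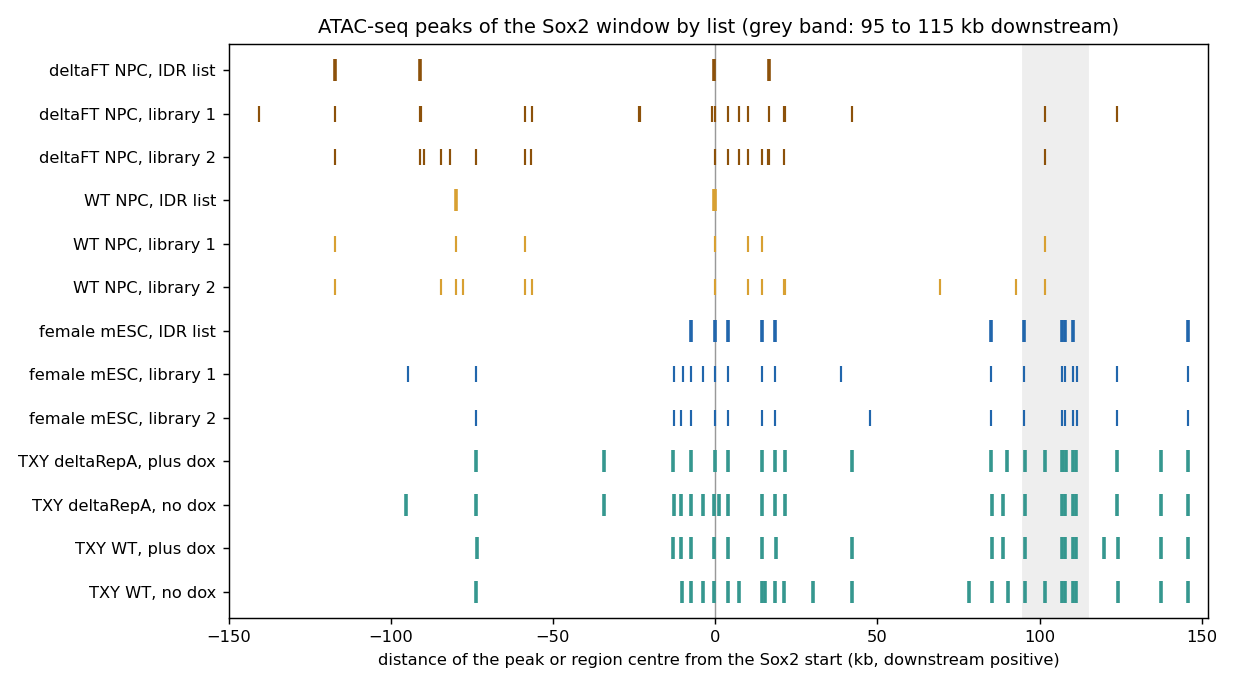
Position of every peak of the Sox2 window (x axis, distance from the Sox2 start in kb) in the 7 sample lists and the 6 library lists (rows); ticks of the library rows stand at the centre of regions merged over the 6 library lists. The grey band, the stretch around the control region, holds 4 mESC IDR peaks, no NPC IDR peak and 5 to 7 peaks of each TXY list.

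At the Sox2 start, every list and every library held a peak. In deltaFT NPC it was 1 peak of 780 bp at 34548237 to 34549016 with 585 reads. In wild-type NPC it was a pair of peaks, at 34548329 to 34548614 with 89 reads and at 34548719 to 34549037 with 194 reads. In mESC it was 1 peak of 362 bp at 34548719 to 34549080 with 246 reads, more than any other window peak of that list. The deltaFT peak overlapped both wild-type NPC peaks, while the mESC peak began at the same base as the second of them. Of all autosomal peaks of the list, 86.8% had no more reads than the start peak in deltaFT NPC, 56.3% no more than the stronger start peak in wild-type NPC, and 72.0% no more than that of mESC.

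Scaled to peak length and depth, the start peak had 69.2 scaled reads per kb (for each 1000000 reads in autosomal peaks) in deltaFT NPC, 56.7 in wild-type NPC and 110 in mESC. The ratio of wild-type NPC to mESC was 0.515 (exact interval 0.425 to 0.625, counting error only), a log2 value of -0.96. The median of 12197 matched autosomal peaks was itself shifted by -0.47 in this comparison, and 21.3% of them had a ratio as low or lower. Relative to that median the start peak stood at -0.49. At least 2-fold lower reads were found in 19.1% of matched peaks and at least 2-fold higher reads in 0.951%, and the start peak, as matched, was in neither class. It passed 2-fold lower under other counts, with a log2 value of -1.33 with both wild-type NPC start peaks summed and -1.14 scaled to depth but not to length. The sum took 283 reads over 605 bp, against 246 over 362 bp in mESC, while the count without length left out the weaker peak. Both wild-type NPC peaks scaled to depth alone were not computed. The ratio of deltaFT to wild-type NPC was 1.22 (1.03 to 1.44), also short of 2-fold, next to 2.04% of 25334 matched peaks at least 2-fold higher and 3.87% at least 2-fold lower. This ratio depended on how the pair of wild-type peaks was counted: with both summed the log2 value was 0.66 in place of 0.29. The ratio of deltaFT to mESC was 0.629 (0.541 to 0.733), against a median log2 value of -0.41 over 12609 matched peaks, of which 0.809% were at least 2-fold higher and 14.5% at least 2-fold lower. Scaled to depth but not to length, deltaFT over the stronger wild-type NPC peak gave a log2 value of 1.58, and deltaFT over mESC gave 0.44 in place of -0.67, so the direction against mESC turned with this choice.

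In the TXY lists the start peak was 687 bp long in deltaRepA with dox and 1422 bp in deltaRepA without dox, and 1447 and 1456 bp in TXY wild type with and without dox. The shorter deltaRepA peak lacked the upstream part that the other 3 lists shared. The summits lay close together all the same, at -67 and -48 bp from the Sox2 start in deltaRepA with and without dox and at 51 and -26 bp in TXY wild type with and without dox. The authors' fold enrichment over local background was 6.27 and 4.74 in deltaRepA with and without dox, and 4.97 and 4.54 in TXY wild type with and without dox. These values and the −log10 p values rest on libraries of unknown depth and were set side by side without a comparison between lists.

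**Figure D2:**
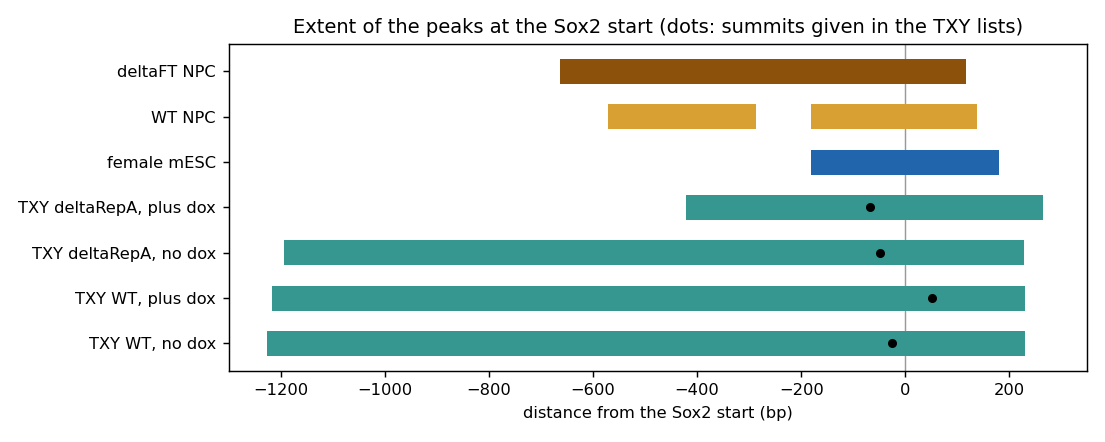
Extent of the peaks at the Sox2 start in the 7 lists (x axis, distance from the Sox2 start in bp; dots, summits of the TXY lists). The deltaFT NPC bar spans 780 bp and the wild-type NPC bars 286 and 319 bp, against 362 bp in mESC and 687 to 1456 bp in the TXY lists.

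Around the gene, 4 further sites were found. The site at 4.0 kb, just behind the gene where a regulatory region active in stem and neural cells is known, held an mESC peak with 94 reads at 34552861 to 34553050 and a peak in all 4 TXY lists. Neither NPC IDR list held it. The library lists did show it in deltaFT NPC, with −log10 p values of 8.27 and 4.50 in its 2 libraries, while neither wild-type NPC library held a peak there and the mESC libraries gave 5.07 and 6.60. In TXY cells its −log10 p was 6.16 in deltaRepA with dox and 5.85 without, and 7.5 in TXY wild type with dox and 15.4 without. The site at -3.6 kb, on the upstream side, was present in both TXY lists without dox (5.31 in deltaRepA and 5.62 in wild type), absent from both with dox, and present in 1 of 2 mESC libraries (5.79). The site at 7.4 kb was present in both deltaFT NPC libraries (5.48 and 8.07) and in TXY wild type without dox (5.2). The site at 1.2 kb, within the gene, was found in TXY deltaRepA without dox alone, at 4.51.

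Between the gene and the control region, the mESC IDR list held peaks at 14.3, 18.6 and 85.1 kb, each also in all 4 TXY lists. TXY lists held further sites in this stretch, among them those at 21.4 and 42.3 kb, each in 3 TXY lists. The 18.6 kb site had 155 reads in mESC, and it was the strongest window peak of both TXY wild-type lists. Its −log10 p was 16.4 in deltaRepA with dox and 8.38 without, and 28 in TXY wild type with dox and 33.6 without. Within their own lists 88.3% and 71.4% of autosomal peaks were no stronger in deltaRepA with and without dox, against 93.5% and 94.3% in TXY wild type with and without dox. No NPC library held a peak at 18.6 kb or at 85.1 kb, where mESC had 123 reads. At 85.1 kb the TXY −log10 p was 13.5 in deltaRepA with dox and 11.2 without, and 5.58 in TXY wild type with dox and 9.85 without. The 14.3 kb site was shared more widely: it held 62 reads in mESC, a peak in all 4 TXY lists, 1 deltaFT NPC library (5.91) and both wild-type NPC libraries (5.53 and 12.3).

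In the stretch around the distal control region, sites at 106.8, 108.0 and 110.3 kb held peaks in every stem cell list and in no NPC list or library. A region at 101.7 kb, in all 4 NPC libraries, is described with the NPC sites, and a site at 107.3 kb was found in TXY deltaRepA with dox alone, at 3.37. In mESC the peak at 106.8 kb (34655606 to 34655925) had 200 reads, with an exact Poisson 95% interval of 173 to 230. That at 108.0 kb (34656815 to 34657075) had 151 reads (128 to 177) and that at 110.3 kb (34658953 to 34659274) had 216 (188 to 247). The mESC start peak, with 246 reads (216 to 279), overlapped in its interval with the 106.8 and 110.3 kb peaks but not with the 108.0 kb peak. These counts are not scaled to peak length. Per 100 bp the start peak had 68.0 reads, against 62.5, 57.9 and 67.1 at 106.8, 108.0 and 110.3 kb. A peak at 95.4 kb (34644029 to 34644461) had 232 reads (203 to 264) and the lowest irreproducible discovery rate of the mESC window peaks, 0.000106. In TXY cells the 95.4 kb site had −log10 p values of 22.0 and 25.3 in deltaRepA with and without dox and of 9.82 and 18.4 in TXY wild type with and without dox, so it was the strongest window peak of deltaRepA without dox.

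A further site of this stretch, at 111.4 kb, was not in the mESC IDR list but in both mESC libraries, with −log10 p values of 8.07 and 10.6. In TXY cells it was the strongest of the peaks from 106.8 to 111.4 kb in all 4 lists. Its −log10 p was 29.7 in deltaRepA with dox and 13.5 without, and 21.2 in TXY wild type with dox and 20.9 without. The 106.8 kb site had 7.54 and 4.20 in deltaRepA with and without dox and 11.7 and 9.17 in TXY wild type with and without dox. At 108.0 kb the values were 7.47 and 9.73 in deltaRepA with and without dox and 14.0 and 8.91 in TXY wild type with and without dox. At 110.3 kb they were 4.23 and 3.97 in deltaRepA with and without dox and 8.46 and 13.3 in TXY wild type with and without dox. All 4 of these sites were thus called in all 4 TXY lists, with the 110.3 kb site in the lower part of both deltaRepA lists, where 35.2% and 24.6% of autosomal peaks with and without dox were no stronger.

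**Figure D3:**
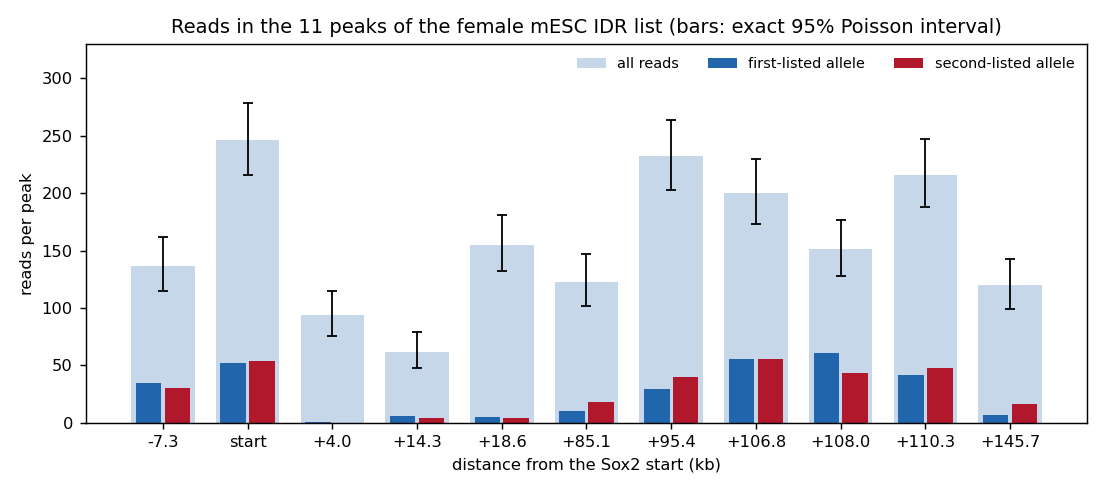
Reads in the 11 window peaks of the female mESC IDR list (y axis, reads per peak; x axis, distance from the Sox2 start in kb; error bars, exact 95% Poisson interval) with the reads of each allele. The start peak (246 reads) and the peaks at 95.4, 106.8 and 110.3 kb (200 to 232 reads) are the highest, and the 4.0 kb peak has 1 allelic read.

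Beyond the control region, the 145.7 kb site had 120 reads in mESC and was present in all 4 TXY lists, with −log10 p values of 22.1 and 11.2 in deltaRepA with and without dox and of 18.9 and 28.4 in TXY wild type with and without dox. On the far upstream side the site at -73.6 kb behaved likewise: both mESC libraries held it (7.44 and 13), though the mESC IDR list did not, and all 4 TXY lists did. Its −log10 p was 10.6 and 14.2 in deltaRepA with and without dox, and 16.8 and 27.3 in TXY wild type with and without dox. One deltaFT NPC library held it, at 3.79. Nearer the gene, the site at -7.3 kb had 137 reads in mESC and TXY values of 5.2 and 5.41 in deltaRepA with and without dox and of 7.79 and 6.82 in TXY wild type with and without dox. The site at 124.1 kb was in all 4 TXY lists, at 8.83 to 14.8, and in both mESC libraries (5.05 and 6.87), with 1 deltaFT NPC library at 6.75.

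The library lists gave each female line a replicate check. Merged over 6 libraries, the window held 46 regions, of which 19 were found in a single library, or 41.3%, against 40.7% of autosomal regions. Regions found in both mESC libraries and in no NPC library numbered 10 of 46, or 21.7% (10.9% to 36.4%), against 11.1% of 174485 autosomal regions, a background just inside the interval. They were the sites at -12.7, -7.3, 18.6, 85.1, 95.4, 106.8, 108.0, 110.3, 111.4 and 145.7 kb. The start was the 1 region of 46 found in all 6 libraries (2.17%, 0.055% to 11.5%), against 9.74% of autosomal regions, a background inside the interval.

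Regions found in all 4 NPC libraries and in neither mESC library numbered 4 of 46, or 8.70% (2.42% to 20.8%), against 11.8% of autosomal regions, so this share was close to the background. Of these 4 regions 1 was in an IDR list, and 1 was also in 2 TXY lists. The region at -117.3 kb had −log10 p values of 17.4 and 14.0 in deltaFT NPC and 6.10 and 9.57 in wild-type NPC, and 123 reads in the deltaFT IDR list. The region at -58.6 kb had 6.75 and 6.72 in deltaFT NPC and 9.91 and 11.8 in wild-type NPC. At 10.0 kb the values were 17.2 and 5.52 in deltaFT NPC and 5.73 and 12 in wild-type NPC, so the libraries of 1 line differed by as much as the lines. In the stretch around the control region, a region at 101.7 kb had 10.5 and 7.25 in deltaFT NPC and 17.1 and 7.05 in wild-type NPC. It was absent from both mESC libraries and lay between stem cell sites at 95.4 and 106.8 kb. TXY deltaRepA with dox (5.51) and TXY wild type without dox (6.23) held a peak there too, with 55.0% and 52.1% of their lists' autosomal peaks no stronger, and the other 3 regions were in no TXY list.

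**Figure D4:**
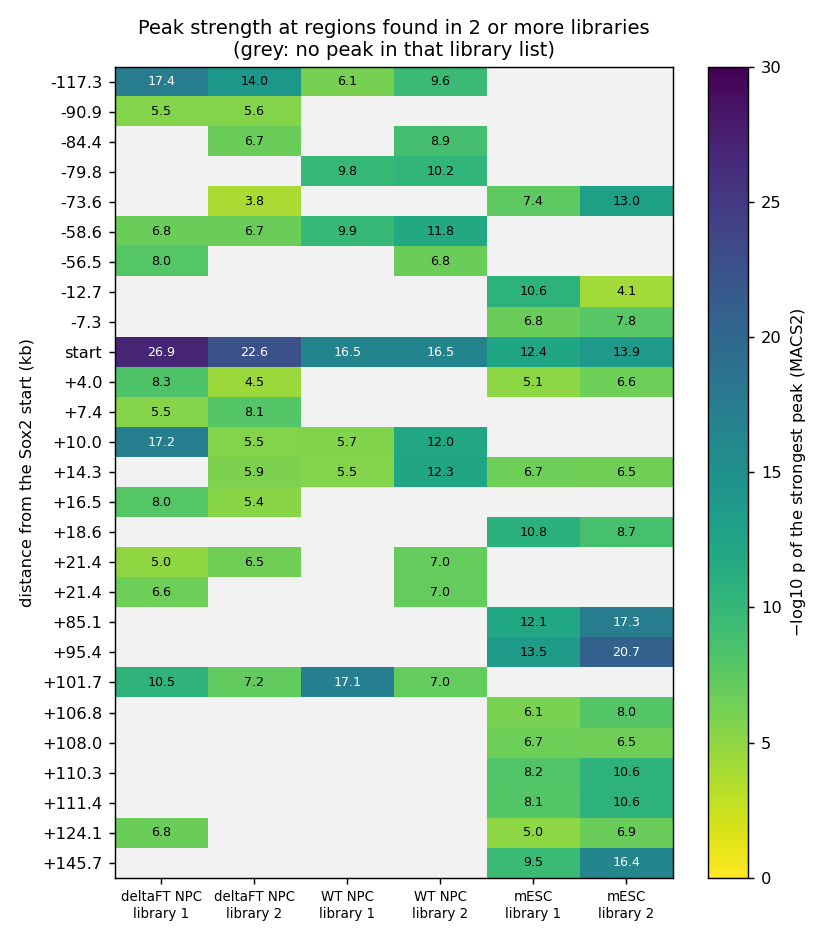
The −log10 p of the strongest peak (colour and printed value) at each region found in at least 2 of the 6 libraries (rows, distance from the Sox2 start in kb; columns, 2 libraries each of deltaFT NPC, wild-type NPC and mESC; grey, no peak). From 106.8 to 111.4 kb all 4 NPC columns are grey and both mESC columns are filled; at 101.7 kb it is the reverse.

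DeltaFT and wild-type NPC are separate lines that differ by a deletion on the X chromosome, while Sox2 lies on chromosome 3. Of the 4 deltaFT IDR peaks of the window 3 overlapped no wild-type NPC IDR peak (interval of the share 19.4% to 99.4%), against 27.8% of autosomal deltaFT peaks. In the other direction it was 1 of 3 wild-type NPC peaks (33.3%, 0.84% to 90.6%), against 34.0%. Both intervals took in their background. Regions found in both deltaFT libraries and in neither wild-type NPC library numbered 4 of 46 (2.42% to 20.8%), against 3.10% of autosomal regions; they were at -90.9, 4.0, 7.4 and 16.5 kb, with −log10 p values from 4.50 to 8.27. Of these, the -90.9 and 16.5 kb regions were in the deltaFT IDR list, with 40 and 120 reads. The reverse pattern was found once in 46 regions (2.17%, 0.055% to 11.5%), against 6.41% of autosomal regions, a background inside the interval. That region, at -79.8 kb, had 84 reads and 9.85 and 10.2 in the wild-type NPC libraries. In the IDR lists, 4 of 10 regions found in both deltaFT libraries (against 65.3% of autosomal ones), 2 of 7 in both wild-type NPC libraries (against 63.0%) and 11 of 15 in both mESC libraries (against 63.2%) were retained. These shares rest on few regions and no interval was computed for them, so whether they differ from the autosomes was not tested. The 2 deltaFT libraries held 19 and 18 window peaks and the wild-type NPC libraries 8 and 15, so the number of peaks differed nearly as much between wild-type NPC libraries as between lines.

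Reads assigned to an allele came evenly from both Sox2 copies in mESC and wild-type NPC. Which strain each allele column stands for is not stated, so they are given as the first-listed and the second-listed allele. Over the window the first-listed allele held 183 of 434 allelic reads in deltaFT NPC (42.2%, 37.5% to 47.0%), 81 of 161 in wild-type NPC (50.3%, 42.3% to 58.3%) and 304 of 617 in mESC (49.3%, 45.3% to 53.3%). Over peaks within 10 Mb on either side it held 49.2% in deltaFT NPC, 49.2% in wild-type NPC and 50.6% in mESC. The low deltaFT value came from the start peak, with 93 first-listed and 176 second-listed reads (34.6%, 28.9% to 40.6%); the other 3 deltaFT peaks together had 90 and 75 (54.5%, 46.6% to 62.3%). The start peaks of wild-type NPC had 66 and 59 reads and that of mESC 52 and 54. An interval wholly below 50% was found in 17.6% of autosomal deltaFT peaks with at least 10 allelic reads, in 15.0% of wild-type NPC peaks and in 16.9% of mESC peaks, so such a peak is common in each line. The wild-type NPC interval for the start, 43.7% to 61.8%, lay above that of deltaFT, while the mESC interval, 39.2% to 59.0%, overlapped it.

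In mESC the 3 IDR peaks from 106.8 to 110.3 kb had 159 first-listed and 147 second-listed reads (52.0%, 46.2% to 57.7%), so both alleles were read at these sites. No window peak with at least 10 allelic reads, of 9 in mESC and 3 in wild-type NPC, had an interval that excluded 50%; the background above 50% was 11.4% in mESC and 17.3% in wild-type NPC. Few reads could be assigned at some sites: 9 of 155 at 18.6 kb and 1 of 94 at 4.0 kb.

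Most Sox2 sites of TXY cells were called both with and without induction of Xist, an RNA that coats the X chromosome it is made from. Each TXY list comes from merged libraries, so these comparisons have no replicate check. Of the deltaRepA peaks with dox, 18 of 22 were also found without it (81.8%, 59.7% to 94.8%), against 62.8% on the autosomes, and of those without dox 18 of 23 were found with it (78.3%, 56.3% to 92.5%), against 68.7%. Of the TXY wild-type peaks with dox, 17 of 20 were also found without it (85.0%, 62.1% to 96.8%), against 69.4%, and of those without dox 17 of 25 were found with it (68.0%, 46.5% to 85.1%), against 62.1%. All 4 intervals took in their background. Of the peaks of 1 condition alone, in deltaRepA the 4 found with dox alone had −log10 p values of 3.37 to 5.51 and the 5 found without dox alone 2.68 to 5.31. In TXY wild type the 3 found with dox alone had 3.42 to 4.1 and the 8 found without dox alone 3.22 to 6.77. The autosomal median was 5.51 and 5.65 in deltaRepA with and without dox and 5.58 and 6.23 in TXY wild type with and without dox, so some of these peaks stood at or above the middle of their list.

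Between TXY genotypes the shares were of the same order. With dox, 17 of 22 deltaRepA peaks were in the wild-type list (77.3%, 54.6% to 92.2%), against 56.8% on the autosomes, and 17 of 20 wild-type peaks were in the deltaRepA list (85.0%), against 63.4%. Without dox it was 18 of 23 deltaRepA peaks (78.3%), against 66.2%, and 18 of 25 wild-type peaks (72.0%), against 60.4%. The intervals of all 4 shares took in their background. Merged over the 4 lists, 15 of 32 window sites were found in all 4 (46.9%, 29.1% to 65.3%), against 25.8% of autosomal sites, and 8 in a single list (25.0%, 11.5% to 43.4%), against 46.4%, and here both backgrounds lay outside the interval. These 8 had −log10 p values of 3.37 to 6.77, and 4 of them were in TXY wild type without dox, the list with most window peaks. The backgrounds were not matched for peak strength. In deltaRepA the median −log10 p of window peaks was 6.23 with dox (autosomes 5.51) and 5.41 without (5.65). In TXY wild type it was 8.75 with dox (5.58) and 8.93 without (6.23). One of the 15 common sites, at 137.3 kb, was in no female library, with −log10 p values of 6.30 and 3.61 in deltaRepA with and without dox and 2.78 and 5.58 in TXY wild type with and without dox.

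**Figure D5:**
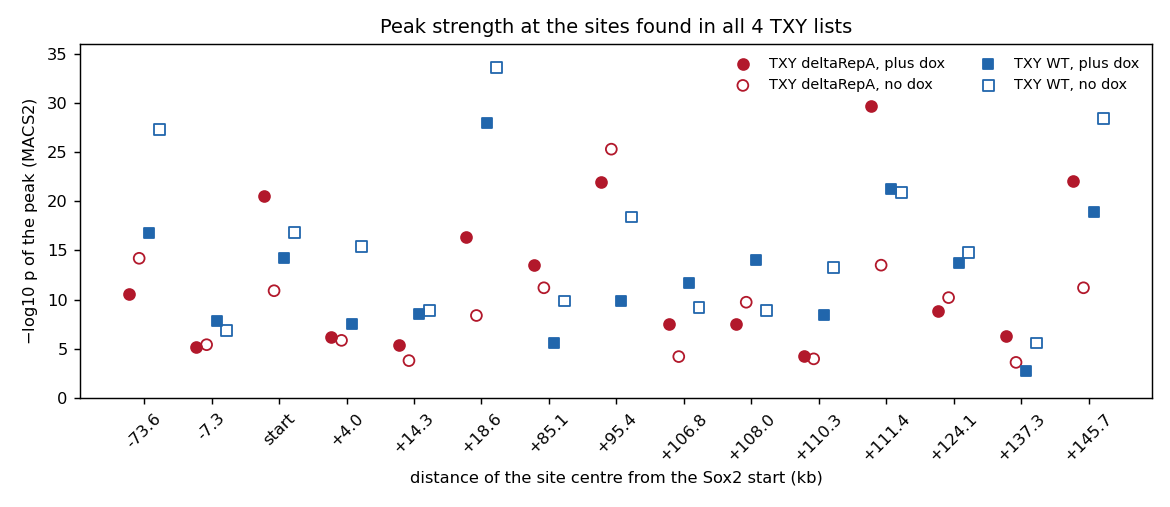
The −log10 p (y axis) of the peak at each of the 15 sites found in all 4 TXY lists (x axis, distance from the Sox2 start in kb; circles deltaRepA, squares wild type; filled with dox, open without). Values range from 2.78 to 33.6, and no list is highest at all sites.

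All 11 female mESC IDR peaks were in all 4 male TXY lists (interval of the share 71.5% to 100%), against 89.9% of autosomal mESC peaks, a background inside the interval. Of the NPC IDR peaks, 1 of 4 in deltaFT (against 53.3%) and 2 of 3 in wild type (against 47.3%) were in all 4 TXY lists, in each case those at the Sox2 start. A peak of at least 1 TXY list was found at 1 of 4 deltaFT peaks (against 70.2%), 2 of 3 wild-type NPC peaks (against 64.6%) and 11 of 11 mESC peaks (against 98.7%). The NPC intervals, 0.631% to 80.6% for 1 of 4 and 9.43% to 99.2% for 2 of 3, took in the backgrounds of both comparisons. An mESC IDR peak was overlapped by 11 of 22 peaks in deltaRepA with dox (50.0%, 28.2% to 71.8%), against 17.6% on the autosomes, and by 11 of 23 in deltaRepA without dox (47.8%), against 19.3%. In TXY wild type it was 11 of 20 with dox (55.0%), against 19.4%, and 11 of 25 without dox (44.0%), against 17.9%. The same 11 mESC peaks were counted in each list, so these shares are not independent. The window held 11 mESC peaks against a median of 2 per window, which raises such shares, and the backgrounds were not matched for it. Overlap with a wild-type NPC IDR peak was limited to the start. It was 1 of 22 peaks in deltaRepA with dox (against 14.6% on the autosomes), 1 of 23 in deltaRepA without dox (15.7%), 1 of 20 in TXY wild type with dox (16.5%) and 1 of 25 in TXY wild type without dox (15.7%). The intervals were, in this order, 0.115% to 22.8%, 0.11% to 21.9%, 0.127% to 24.9% and 0.101% to 20.4%. Each took in its background, and the same start site was counted in each list.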

How the data were processed

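Per the submitters' processing notes the authors used cutadapt, Bowtie2 and MACS2 on mm9; no version, setting or read shift is named. The female lines have, as deposited by the authors, an IDR list with raw read counts per peak and allele (whether of 1 or both libraries is not stated) and a list per library. Each TXY sample has 1 merged list. The library and TXY lists hold, as deposited by the authors, a fold enrichment (a ratio), −log10 p and q values and a peak score, which was not used. An overlap was 1 bp or more (bedtools 2.31.1); python 3.11.15, numpy 2.4.6, pandas 2.3.3, scipy 1.17.1 and matplotlib 3.10.9 did the rest. Coordinates count from 1, both ends included. Shares carry exact Clopper-Pearson intervals, which like all intervals cover counting error only, since reads are not independent molecules. The IDR lists held 11085592 reads in deltaFT NPC peaks, 11014387 in wild-type NPC peaks and 6490181 in mESC peaks; the depth of the other lists is unknown. The 19 autosomes of the same lists were the background. Steps were tested on simulated data. Sites described singly lay within 5 kb of Sox2 or 95 to 115 kb downstream, were in 2 IDR lists or were among the 5 strongest of a list by reads or −log10 p; those at -12.7, -7.3, 14.3, 124.1 and 137.3 kb and the regions of the library lists were picked after their values were seen. The window, lists and tests were chosen with earlier results of these data known. No marker genes were applied, since the peak lists carry no gene names.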

Additional observations from a re-analysis of the deposited data

How the results depend on the processing

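Of 103 alternative values for 32 results, 69 stayed within the interval of the reported value and 34 moved outside it. Staying inside says little where an interval is wide. For wild-type NPC IDR peaks without an mESC IDR peak it ran from 9.43% to 99.2%, over 3 peaks. A fall from 66.7% to 33.3% stayed inside it. Among the log2 ratios the sign turned in 1, deltaFT over mESC at the start peak, a value with no test. The first-listed allele share crossed 50% as well. Without the peak of most allelic reads it went from 42.2% to 54.5% in deltaFT NPC and from 50.3% to 46.9% in wild-type NPC. In mESC it was 49.3% in the window and 50.6% within 10 Mb outside it. The wild-type NPC and mESC values stayed within their intervals. With 50% of the peak required to be covered, the deltaFT peaks without a wild-type NPC peak became 100% and the TXY peaks overlapping a wild-type NPC peak 0% in all 4 lists. With the first TXY list kept to −log10 q of at least 5, the share found again became 100% in every dox and genotype comparison; with both lists so kept it was 85.7% for TXY wild type without dox, 100% for deltaRepA without dox against the plus-dox list, and 100% for deltaRepA without dox against wild type, while TXY wild-type peaks found in the deltaRepA list fell to 64.3% both with dox (85.0% as reported) and without (72.0%). TXY wild-type peaks without dox overlapped an mESC peak in 71.4% under either setting. No autosomal share was computed for these stricter settings. Whether such shares are particular to the window was therefore not tested. For the start peak, wild-type NPC over mESC was -0.49 with the median matched peak set to 0 and -1.33 with all peaks of the site summed. DeltaFT over wild-type NPC was 1.58 per peak and 0.66 summed, and deltaFT over mESC -0.67 as reported, -0.26 with the median set to 0 and 0.44 per peak. The deltaFT allele share of 42.2% was 54.5% without the start peak, 50.0% as the median over 3 peaks with at least 20 allelic reads and 49.2% within 10 Mb outside the window. Taking 1 library per line, regions of every mESC and no NPC library made up 36.8% to 41.7%, of deltaFT and no wild-type NPC library 23.7% to 38.9%, of wild-type and no deltaFT NPC library 5.56% to 15.8%, and of exactly 1 library 71.1% to 77.8%, which fewer libraries give by construction. The library regions and the 10 Mb flank were added after the data were seen. No paired analysis was possible because each group has 1 sample. A peak too weak for a list is not detectable at these depths.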

Other observations

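Peaks of like strength differed in whether an IDR list held them. The mESC peak at 110.3 kb entered the list with −log10 p values of 8.15 and 10.6 and an irreproducible discovery rate of 0.00815, while the peak at 111.4 kb, with 8.07 and 10.6, is not in it. The wild-type NPC region at -58.6 kb, with 9.91 and 11.8, is likewise not in its list, while the region at -79.8 kb, with 9.85 and 10.2, is.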
